A study of Mus musculus with 11 samples.

Results

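The genes described here are 36 genes of cholesterol and fatty-acid synthesis and of the sterol regulatory element-binding proteins (SREBPs) that control them, out of 34728 gene symbols in the table. They were taken from a written list of SREBP regulators, sterol enzymes, sterol transport genes and fatty-acid genes, and all 36 were present in the table. They comprise 5 regulators, 18 sterol synthesis enzymes, 2 sterol transport genes and 11 genes of fatty-acid synthesis and use. RNA was measured in 11 libraries of GFP-positive cells sorted from islets of male mice on a mixed C57BL/6 x 129SV background, all 8 weeks old. Every mouse carried *RIP-Cre*, a Cre recombinase under the rat insulin promoter, and a *Rosa26* GFP reporter that stays on in cells in which Cre has acted. The 3 WT libraries came from littermates with intact *Raptor*, which encodes the defining subunit of the growth kinase complex mTORC1. The 4 diabetic βRapKOGFP libraries came from mice lacking *Raptor* in Cre-expressing cells and left without insulin. The 4 euglycemic βRapKOGFP libraries came from such mice given insulin by implant for 4 weeks. No WT group with an implant is among the samples, so implant and glycemia cannot be told apart in the mutant mice. The gate follows GFP and not insulin, so it keeps any cell whose lineage once used the insulin promoter. The sources do not say whether each library is 1 mouse or several, and p-values therefore measure the spread between these libraries only.

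SREBPs are made as precursors in the membrane of the endoplasmic reticulum, held there with their escort SCAP by the INSIG proteins when sterols are plentiful. When sterols fall, SCAP carries the precursor to the Golgi, where proteases release the part that enters the nucleus and switches on sterol and fatty-acid genes. In many tissues insulin and mTORC1 raise SREBP activity, and in β-cells membrane cholesterol and fatty-acid supply bear on insulin granules and secretion.

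Values are FPKM (fragment counts corrected for transcript length and for the mapped fragments of each library), and fold changes are differences of log2(FPKM + 1), a scale that understates the change of low genes. A gene was called where limma's adjusted p (Benjamini-Hochberg over 11251 tested genes) was at most 0.05 and the change at least 1.5-fold. Only genes that reached 1 FPKM in 3 or more libraries were tested, which 33 of the 36 did. *Rptor*, the targeted gene, averaged 1.37 ± 0.422 FPKM in WT (SD, n = 3), against 0.690 ± 0.229 in diabetic (SD, n = 4) and 0.491 ± 0.0909 in euglycemic libraries (SD, n = 4), with no mutant library as high as any WT library. Fragment totals inferred from the values were 9497778 to 16644002 per library, so that 1 fragment on 1 kb equals 0.0601 to 0.105 FPKM. All 8 β-cell markers were detected in every library, summing to 156520 to 190541 FPKM in WT, 137722 to 206198 in diabetic and 116568 to 201843 in euglycemic libraries, with 6 of the 8 mutant libraries below every WT library. The insulin genes and *Iapp* make up nearly all of that sum. Of the other markers, the glucose transporter gene *Slc2a2* read 69.7 to 87.0 FPKM in WT, 13.1 to 21.4 in diabetic and 14.05 to 29.6 in euglycemic libraries. The markers did not move alike. *Slc2a2* lay below every WT library in 8 of the 8 mutant libraries and the transcription factor gene *Pdx1* in 7. The number was 6 each for *Nkx6-1* and *Ins1*, 4 for *Ucn3*, 2 for *Ins2*, 1 for *Mafa* and 0 for *Iapp*. *Iapp* read 28608 to 45864 FPKM in WT and 45738 to 53380 in euglycemic libraries. Markers of other cells differed between libraries. The summed FPKM of 7 acinar genes was 1.76 to 30.2 in WT but 641 to 3232 in 5 mutant libraries (diabetic replicates 1 to 3 and euglycemic replicates 1 and 4), and it was 1.47 to 2.77 in the other 3. Summed α-cell markers (5 genes) were 1047 to 2438 in WT, 3935 to 14718 in diabetic and 4759 to 23767 in euglycemic libraries. Summed δ-cell markers (3 genes) were 1176 to 2514, 4941 to 12262 and 4864 to 13953 in the same order, and macrophage markers (5 genes) 33.3 to 41.7, 74.6 to 197 and 55.3 to 124. Of the 5 macrophage genes, 1, 3 and 2 were at 0 in WT replicates 1 to 3. In diabetic replicate 4 it was 3, and in euglycemic replicates 1, 3 and 4 it was 2 each, so those sums rest on few genes. The pancreatic polypeptide gene read 364 to 909 FPKM in WT, 3007 to 11315 in diabetic and 3616 to 12190 in euglycemic libraries. Summed duct markers (4 genes) were 58.1 to 71.6, 57.3 to 86.1 and 95.8 to 131 in that order, endothelial markers (5 genes) 0.0487 to 1.52, 7.23 to 46.5 and 0.0436 to 2.32, and B cell markers (4 genes) 8.20 to 20.1, 0.199 to 0.856 and 0 to 1.10. Of the 4 B cell genes, 3 were at 0 in every WT library, so the WT sum is that of a single gene and does not show B cells. Summed fibroblast markers (4 genes) were 0 to 0.496 in WT, 0.0600 to 15.0 in diabetic and 0 to 0.241 in euglycemic libraries, and immediate early genes (7 genes) 1111 to 3057, 907.2 to 1466 and 889 to 4676. Adipocyte markers (5 genes), cells with strong lipid synthesis, were all at 0 in WT and summed to at most 0.399 in any mutant library. Fits without the 5 acinar-rich libraries are given beside the results, and the part of the other cell types in the results was not tested.

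Across the tested genes, the prevailing direction was lower in the mutants. In diabetic libraries 27 of 33 had a negative fold change, with a median of −0.39 against 0.01 over all tested genes, and 1 gene was called, *Scd2*, where the background of called genes was 0.969%. In euglycemic libraries 30 of 33 had a negative fold change, with a median of −0.64 against −0.01 over all tested genes, and *Scd2* and *Stard4* were called, against a background of 0.551%. With both mutant groups together *Scd2* and *Stard4* were again called, where 1.05% of all tested genes were, and the median was −0.49 against −0.0035 over all tested genes. No gene of the 33 was called higher in either mutant group, where 0.471% and 0.356% of all tested genes were. In euglycemic libraries *Ebp* was called higher with library weights (adjusted p = 0.00804), without WT replicate 1 (0.0460) and without WT replicate 1 and euglycemic replicate 4 together (0.0339), and *Pmvk* with library weights (0.0235). Those 3 fits called 9, 2 and 6 of the genes lower, and over all genes they called 20.3%, 4.76% and 10.9% in either direction. The 9 lower with library weights were *Fads2*, *Fasn*, *Hmgcs1*, *Idi1*, *Scap*, *Scd2*, *Srebf1*, *Stard4* and *Tm7sf2*. Over both mutant groups library weights called *Ebp* higher (adjusted p = 0.0289) and 5 genes lower, where 9.92% of all genes were called. At an unadjusted p of at most 0.05 the number lower was 6 in diabetic libraries (18.2%, where 5.74% of all tested genes were lower) and 19 in euglycemic libraries (57.6%, against 6.52%). None was higher in either group, where 6.15% and 7.33% of all tested genes were. Over both mutant groups 15 were lower and 0 higher, where 5.37% and 5.94% of all tested genes were. In 6 genes all diabetic libraries were below all WT libraries, and in 12 genes all euglycemic libraries were; over all tested genes the shares were 6.88% and 5.02%. Counted in either direction, the share of all tested genes at an unadjusted p of at most 0.05 was 11.9% in diabetic, 13.9% in euglycemic libraries and 11.3% over both groups. Without euglycemic replicate 4 the diabetic count was 10 genes (15.6% of all tested genes) and the euglycemic count 12 (14.9%). Without WT replicate 3 the euglycemic count was 10 (7.08% of all tested genes) and the count over both groups 8 (7.20%), and without WT replicate 1 the latter was 10 (16.1%). A fit on the 6 libraries with few acinar transcripts had 3 WT, 1 diabetic and 2 euglycemic libraries. No gene of the 33 was called there in euglycemic libraries or over both groups, where 0.0575% and 0.345% of all tested genes were. In euglycemic libraries 8 reached an unadjusted p of 0.05 or less by limma, where 9.87% of all tested genes did. The medians there were −0.33 in diabetic and −0.51 in euglycemic libraries. Both comparisons share the 3 WT libraries and are not independent. In a bulk sample of sorted cells, fewer cells of a type and less RNA per cell cannot be told apart.

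**Figure D1:**
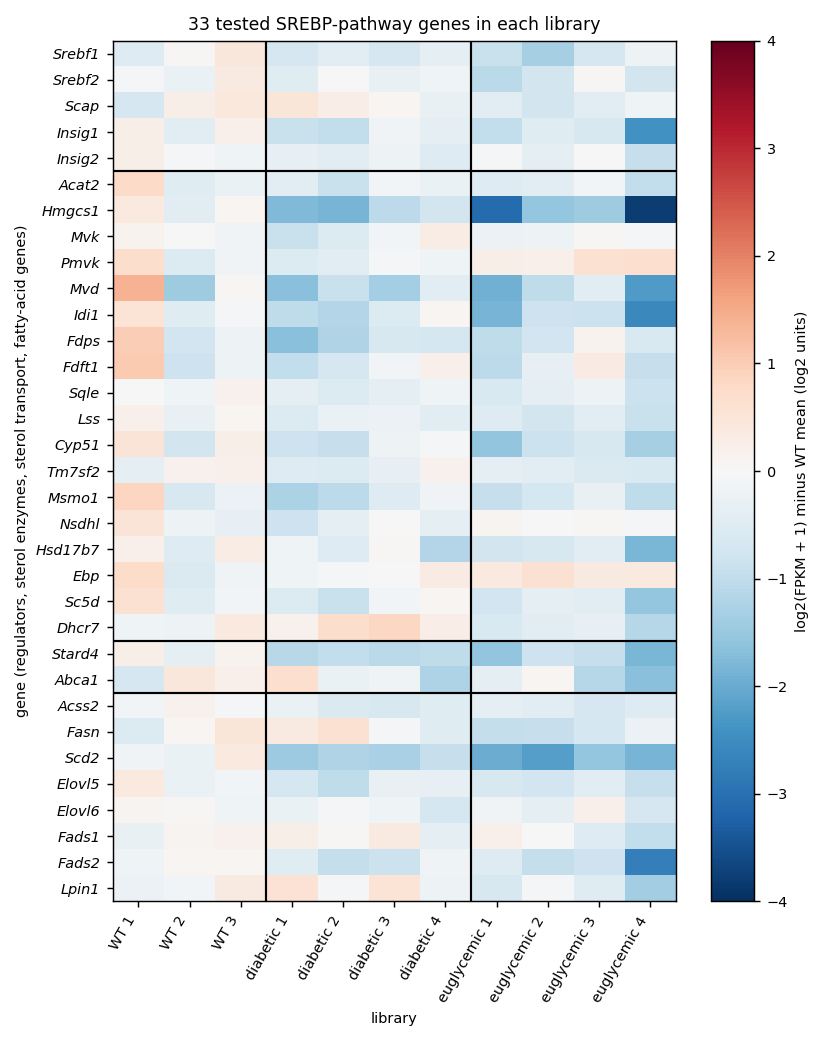
Difference of log2(FPKM + 1) from the WT mean (colour, log2 units; blue is lower) for the 33 tested genes (vertical axis, split by role) in each of the 11 libraries (horizontal axis). *Scd2*, *Stard4* and *Hmgcs1* are blue in all 8 mutant libraries, while euglycemic replicate 4 is the lowest library for 17 genes and WT replicate 1 the highest for 17.

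The regulators were expressed in every library, and none was called. *Srebf1* (ENSMUSG00000020538, chromosome 11, 60199089 to 60222581, GRCm38) encodes SREBP-1, which favours fatty-acid genes. Its FPKM was 10.1, 15.8 and 21.1 in WT, 8.996, 10.9, 9.13 and 11.2 in diabetic, and 7.58, 5.36, 9.12 and 13.0 in euglycemic libraries. WT replicate 1 lay within the range of both mutant groups. The fold change was −0.54 (SE 0.28, adjusted p = 0.474) in diabetic and −0.78 (SE 0.28, adjusted p = 0.248) in euglycemic libraries.

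*Srebf2* (ENSMUSG00000022463, chromosome 15, 82147181 to 82205379) encodes SREBP-2, which favours sterol genes. It read 19.1, 16.8 and 26.2 FPKM in WT, 14.3, 20.3, 16.3 and 17.8 in diabetic, and 9.08, 11.9, 21.1 and 11.8 in euglycemic libraries. The diabetic and WT ranges overlapped, and 3 of the 4 euglycemic libraries lay below all others. Its fold change was −0.24 (SE 0.26, adjusted p = 0.785) and −0.62 (SE 0.26, adjusted p = 0.304) respectively.

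*Insig1*, which retains SCAP and is itself an SREBP target, was the regulator with the highest mean FPKM. It read 59.4, 37.8 and 58.0 FPKM in WT, 27.1, 25.2, 46.0 and 39.4 in diabetic, and 25.2, 36.04, 32.2 and 8.62 in euglycemic libraries. Every euglycemic library lay below every WT library, and euglycemic replicate 4 was the lowest. The fold change was −1.13 (SE 0.40, adjusted p = 0.244) in euglycemic and −0.59 (SE 0.40, adjusted p = 0.617) in diabetic libraries.

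*Insig2*, the other retention protein, read 11.2, 9.02 and 8.30 FPKM in WT, 7.30, 6.58, 7.98 and 6.32 in diabetic, and 8.98, 7.04, 9.40 and 4.55 in euglycemic libraries. All diabetic libraries lay below WT, by a fold change of −0.38 (SE 0.23, adjusted p = 0.554), and the euglycemic libraries overlapped WT (−0.34, SE 0.23, adjusted p = 0.519). *Scap*, the escort, read 3.06, 6.59 and 7.61 FPKM in WT, 8.01, 6.79, 5.76 and 4.26 in diabetic, and 3.77, 2.83, 3.75 and 4.71 in euglycemic libraries. Its groups overlapped, with 3 of 4 euglycemic libraries below every diabetic one. The fold change was 0.14 (SE 0.27, adjusted p = 0.893) in diabetic and −0.45 (SE 0.27, adjusted p = 0.482) in euglycemic libraries. Of the bases in *Scap* exons, a share of 13.2% also lies in a gene on the opposite strand, and whether the counting used strand is not given in the sources used here.

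Among the 18 sterol synthesis enzymes, 16 had a negative fold change in diabetic and 15 in euglycemic libraries, with medians of −0.39 and −0.59. None was called. At an unadjusted p of at most 0.05, 2 were lower in diabetic and 10 in euglycemic libraries, where 5.74% and 6.52% of all tested genes were lower. None was higher in either, where 6.15% and 7.33% were.

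*Hmgcs1* (ENSMUSG00000093930, chromosome 13, 119690379 to 119708260, plus strand), which makes HMG-CoA at the entry of the mevalonate pathway, had the highest mean FPKM of them over the 11 libraries, although *Fdft1* had the higher mean in both mutant groups. It read 156, 87.0 and 126 FPKM in WT, 34.1, 32.5, 57.3 and 72.0 in diabetic, and 13.3, 39.9, 44.4 and 7.74 in euglycemic libraries. All mutant libraries were below all WT libraries, and the lowest were euglycemic replicates 4 and 1. Its mean FPKM was 2.51-fold lower in diabetic and 4.67-fold lower in euglycemic libraries. The fold change on the log2 scale was −1.35 (SE 0.51, adjusted p = 0.298) and −2.46 (SE 0.51, adjusted p = 0.0568), and over both mutant groups −1.90 (SE 0.45, adjusted p = 0.0745), so no comparison passed the threshold. With 1 library left out it was called in 1 of 11 euglycemic fits (without euglycemic replicate 3, adjusted p = 0.0315) and in 2 of 11 over both groups (without euglycemic replicates 3 or 4, adjusted p = 0.0406 and 0.0382). With library weights it was called in both (adjusted p = 0.00514 and 0.0119), where 20.3% and 9.92% of all genes were. In the 3 mutant libraries with few acinar transcripts *Hmgcs1* read 72.0, 39.9 and 44.4 FPKM, also below all WT libraries, and in the 5 with many it read 7.74 to 57.3. Without the 5 acinar-rich libraries its fold change was −0.72 in diabetic and −1.48 in euglycemic libraries and −1.10 over both (adjusted p = 0.721, 0.178 and 0.209). A share of 12.1% of its exonic bases overlaps an opposite-strand gene, *Gm48342*.

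Further along the mevalonate pathway, *Mvd*, which makes isopentenyl diphosphate, read 68.2, 8.84 and 26.7 FPKM in WT, 7.44, 13.4, 9.37 and 18.7 in diabetic, and 6.03, 12.1, 18.3 and 4.54 in euglycemic libraries. WT replicate 1 stood far above the rest, and WT replicate 2 lay within the mutant range. The fold changes were −1.09 and −1.42 (SE 0.57 each, adjusted p = 0.490 and 0.296). *Idi1*, the isopentenyl diphosphate isomerase, read 28.2, 13.2 and 17.9 FPKM in WT, 8.77, 7.82, 12.7 and 20.01 in diabetic, and 4.52, 10.2, 10.0 and 2.35 in euglycemic libraries. All euglycemic libraries lay below WT, by −1.52 (SE 0.43, adjusted p = 0.155), while diabetic replicate 4 lay above 2 of 3 WT libraries (−0.66, SE 0.43, adjusted p = 0.597). Of the 50-base stretches of *Idi1*, 25.3% also occur elsewhere, mainly in *Gm13502*. The farnesyl diphosphate synthase *Fdps* had a fold change of −1.05 in diabetic and −0.56 in euglycemic libraries (adjusted p = 0.298 and 0.539), and *Fdft1*, squalene synthase, −0.39 and −0.49 (adjusted p = 0.802 and 0.642). These also share 50-base stretches with other genes, at 26.2% (mainly *Gm43738*) and 26.5% (mainly *Ctsb*). Of the exonic bases of *Fdps*, 26.7% lie in *Gm43738* on the same strand. Of those of *Fdft1*, 18.3% lie in *Ctsb* on the opposite strand.

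In the later steps from squalene to cholesterol, *Cyp51*, the lanosterol demethylase, had 38.8 ± 15.8 FPKM in WT (SD, n = 3), 26.3 ± 7.83 in diabetic (SD, n = 4) and 17.1 ± 5.26 in euglycemic libraries (SD, n = 4), with fold changes of −0.50 and −1.10 (adjusted p = 0.598 and 0.178). The lanosterol synthase *Lss* had fold changes of −0.37 and −0.64 (adjusted p = 0.489 and 0.186), and the squalene epoxidase *Sqle* −0.37 and −0.51 (adjusted p = 0.490 and 0.278). In *Lss*, *Sqle* and *Tm7sf2*, a sterol reductase, every euglycemic library lay below every WT library. The 3 enzymes without a negative fold change in euglycemic libraries were *Pmvk* (phosphomevalonate kinase, 0.43, adjusted p = 0.485), *Ebp* (a sterol isomerase, 0.43, adjusted p = 0.480) and *Nsdhl*, whose mean FPKM was 8.36 ± 3.14 (SD, n = 3) in WT and 8.17 ± 0.461 (SD, n = 4) in euglycemic libraries. *Hsd17b7*, a sterol ketoreductase, was listed at 0 in euglycemic replicate 4 and read 1.15 to 1.60 FPKM in the other 3 euglycemic libraries and 1.49 to 3.42 in WT (fold change −0.92, adjusted p = 0.289, and −0.46 in diabetic libraries, adjusted p = 0.673).

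*Msmo1*, a methylsterol oxidase, had fold changes of −0.73 in diabetic and −0.74 in euglycemic libraries (adjusted p = 0.443 and 0.371). *Sc5d*, a sterol desaturase, had −0.36 and −0.77 (adjusted p = 0.741 and 0.343), *Tm7sf2* −0.30 and −0.51 (adjusted p = 0.645 and 0.334) and *Acat2*, an acetoacetyl-CoA thiolase, −0.43 and −0.52 (adjusted p = 0.634 and 0.471). *Acat2* shares 39.1% of its 50-base stretches, mainly with *Acat3*, so its reads may be split. *Mvk*, mevalonate kinase, read 2.90 to 3.74 FPKM in WT, 1.28 to 4.18 in diabetic and 2.64 to 3.45 in euglycemic libraries, with a diabetic fold change of −0.32 (adjusted p = 0.678), and *Nsdhl*, a sterol dehydrogenase, had −0.40 in diabetic libraries (adjusted p = 0.564).

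**Figure D2:**
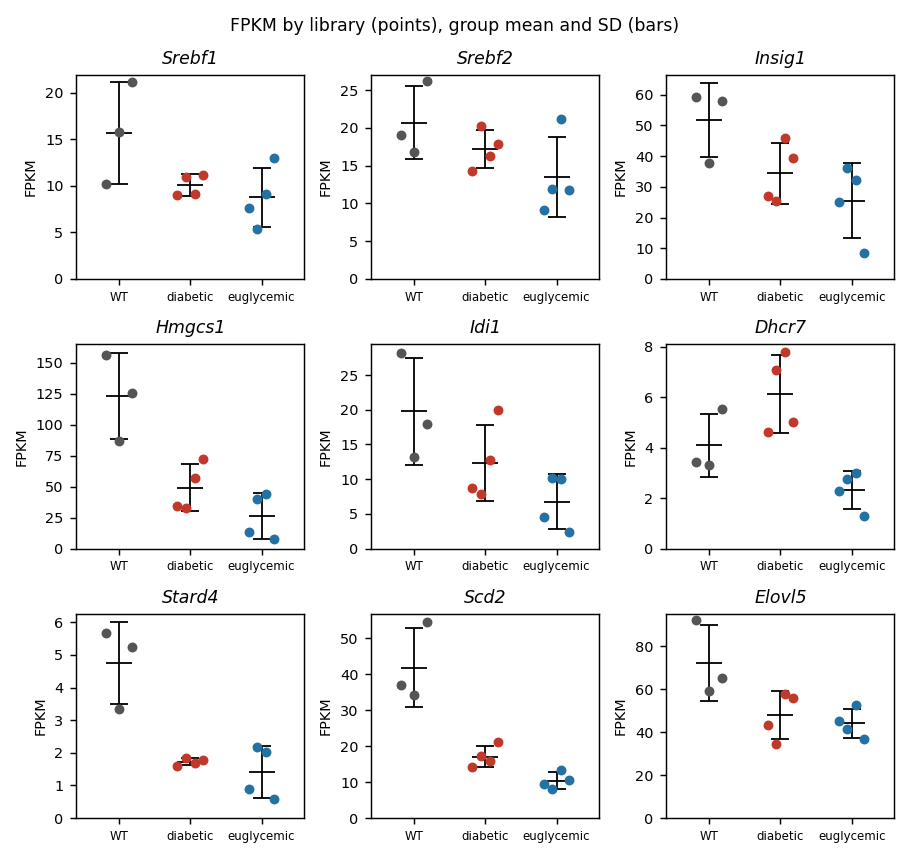
FPKM (vertical axis, linear, from 0) of 9 genes in WT (n = 3), diabetic (n = 4) and euglycemic (n = 4) libraries; points are libraries and bars the group mean and SD. Mutant points lie below all WT points for *Hmgcs1*, *Stard4*, *Scd2* and *Elovl5*, and the diabetic points of *Dhcr7* lie above all 4 euglycemic points.

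The WT libraries themselves differed in this branch. WT replicate 1 was the highest of the 11 libraries for 13 of the 18 sterol enzymes, and euglycemic replicate 4 the lowest for 10. The median difference from the WT mean over the 18 enzymes was 0.54, −0.49 and −0.10 in the 3 WT libraries, −0.69, −0.62, −0.15 and −0.15 in the diabetic, and −0.66, −0.45, −0.31 and −0.96 in the euglycemic libraries. WT replicate 2 thus lay below both diabetic replicates 3 and 4 and euglycemic replicates 2 and 3. The median over the 8 tested fatty-acid genes did not overlap between the groups, at −0.16 to 0.14 in WT, −0.43 to −0.23 in diabetic and −0.95 to −0.57 in euglycemic libraries. The libraries are the same in both medians, and neither carries a test.

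**Figure D3:**
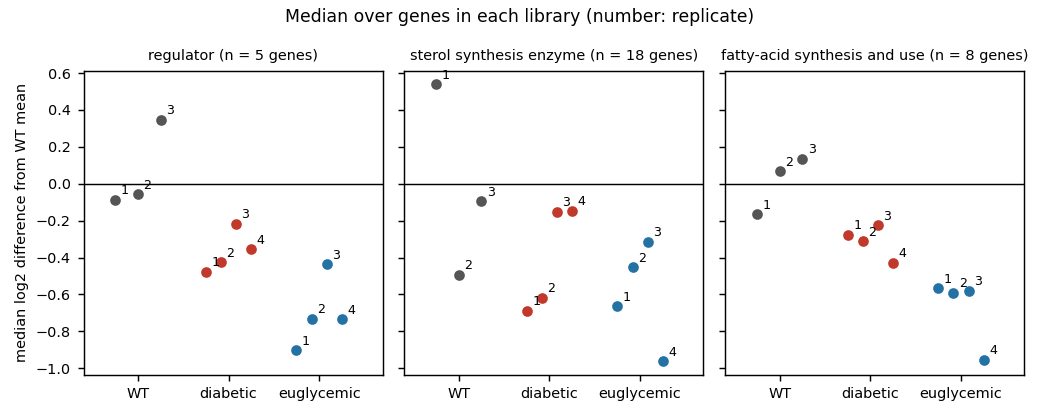
Median over genes of the difference of log2(FPKM + 1) from the WT mean (vertical axis, log2 units), in each library (points, labelled with the replicate number), for regulators, sterol enzymes and fatty-acid genes. For sterol enzymes the WT points spread from −0.49 to 0.54 and overlap the mutants, and for fatty-acid genes the 3 groups do not overlap.

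Binding sites for SREBPs and for the factor NF-Y, which often acts beside them, lie close to the start of many sterol genes, so the RefSeq promoter sequences (GRCm38.p6, 250 bases before to 50 after each start) were searched. They hold 29 of the 36 genes, without *Scd1*, *Scd2*, *Sqle*, *Stard4*, *Fdps*, *Fdft1* and *Fads1*. The sterol regulatory element TCACNCCAC, on either strand, occurred in 1 of the 29 (3.45%, *Hmgcs1*), against 1.44% of 27025 genes. The looser form TCANNCCAC, which contains it, occurred in 3 (10.3%, against 4.78%), the NF-Y box CCAAT in 22 (75.9%, against 41.1%) and the E-box CACGTG in 7 (24.1%, against 8.09%). These matches are of letters only, and binding was not measured. The stretches below, each 150 bases upstream of the annotated starts, show *Hmgcs1* with the element, *Insig1* with an E-box, and *Mvd* and *Elovl5* with 2 CCAAT boxes each, all read 5′ to 3′ on the strand of the gene with the matches in capitals (ATTGG is CCAAT on the other strand). They lie at chr13:119690201-119690350 (plus strand), chr5:28071213-28071362 (plus), chr8:122443423-122443572 (minus) and chr9:77917214-77917363 (plus).
Hmgcs1: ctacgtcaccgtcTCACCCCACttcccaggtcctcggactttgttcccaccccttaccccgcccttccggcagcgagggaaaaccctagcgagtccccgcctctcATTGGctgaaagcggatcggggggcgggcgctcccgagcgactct
Insig1: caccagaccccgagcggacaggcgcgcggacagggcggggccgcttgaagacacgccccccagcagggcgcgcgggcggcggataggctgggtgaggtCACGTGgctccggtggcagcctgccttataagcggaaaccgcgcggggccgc
Mvd: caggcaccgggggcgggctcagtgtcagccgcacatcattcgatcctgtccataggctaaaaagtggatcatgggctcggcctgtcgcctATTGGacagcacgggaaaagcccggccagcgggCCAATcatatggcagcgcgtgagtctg
Elovl5: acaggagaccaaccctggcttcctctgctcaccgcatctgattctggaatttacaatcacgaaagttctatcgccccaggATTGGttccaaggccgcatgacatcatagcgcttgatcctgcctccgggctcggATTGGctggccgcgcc

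Of the sterol transport genes, *Stard4* (ENSMUSG00000024378), a carrier that moves cholesterol between membranes, fell in euglycemic libraries and over both mutant groups. It read 5.68, 3.34 and 5.24 FPKM in WT, 1.60, 1.85, 1.67 and 1.79 in diabetic, and 0.884, 2.18, 2.01 and 0.589 in euglycemic libraries. All mutant libraries were below all WT libraries, and the diabetic libraries differed little among themselves. Its mean FPKM was 2.75-fold lower in diabetic and 3.36-fold lower in euglycemic libraries. The fold change was −1.29 (SE 0.26, adjusted p = 0.0468) in euglycemic libraries and −1.17 (SE 0.23, adjusted p = 0.0288) over both mutant groups, both called, and −1.05 (SE 0.26, adjusted p = 0.0866) in diabetic libraries, not called. The diabetic difference was called with library weights (adjusted p = 0.0312), with only the groups compared (0.0324) and without euglycemic replicate 4 (0.0312), where 4.90%, 1.46% and 1.88% of all genes were called. The euglycemic call was lost without a filter (adjusted p = 0.190), with a pseudocount of 0.1 (0.0877), in TPM (0.0657), with only the groups compared (0.163) and with the replicate number as a block (0.169), and the call over both groups without a filter (0.135), with the pseudocount (0.0666) and with the block (0.111). In the same order, 0.0474%, 0.453%, 0.323%, 0.169% and 0.178% of all tested genes were called in euglycemic libraries, against 0.551%. Over both groups the shares were 0.0839%, 0.8% and 0.471%, against 1.05%. The euglycemic call was close to the threshold and held in 1 of 11 fits that each left out 1 library, the one without WT replicate 1 (adjusted p from 0.0460 to 0.265). The call over both groups held in 6 of those 11 fits. Without the 5 acinar-rich libraries the fold changes were −0.87 in euglycemic libraries and −0.94 over both groups. Neither was called, where 0.0575% and 0.345% of all tested genes were.

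*Abca1*, the exporter of cholesterol to lipoproteins, is raised when sterols are plentiful through the liver X receptors. It read 6.07, 14.3 and 12.0 FPKM in WT, 16.9, 8.28, 9.01 and 3.73 in diabetic, and 7.60, 10.7, 4.08 and 2.52 in euglycemic libraries. The 3 groups overlapped, with fold changes of −0.25 and −0.78 (SE 0.47 each, adjusted p = 0.884 and 0.471).

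The lowest p of the 33 tested genes, in each comparison with WT, was that of *Scd2* (ENSMUSG00000025203, chromosome 19, 44293674 to 44306864, GRCm38), a stearoyl-CoA desaturase that makes monounsaturated fatty acids. It read 36.9, 34.1 and 54.6 FPKM in WT, 14.2, 17.2, 16.0 and 21.0 in diabetic, and 9.56, 8.05, 13.4 and 10.6 in euglycemic libraries. The 3 groups did not overlap. Its mean FPKM was 2.45-fold lower than WT in diabetic and 4.02-fold lower in euglycemic libraries. The fold change was −1.23 (SE 0.22, adjusted p = 0.0251) in diabetic libraries, −1.90 (SE 0.22, adjusted p = 0.00183) in euglycemic libraries and −1.56 (SE 0.20, adjusted p = 0.00267) over both. The euglycemic call held in all 11 fits that left out 1 library (adjusted p up to 0.0206). The diabetic call held in 5 of the 11 and was lost without any of WT replicates 1 to 3 or diabetic replicates 1 to 3 (adjusted p up to 0.125). It was also lost without a filter (adjusted p = 0.0834), where 0.0803% of all tested genes were called. In the 6 libraries with few acinar transcripts the fold change was −0.93 in diabetic (1 library) and −1.88 in euglycemic libraries (2 libraries). The euglycemic difference was not called there, where 0.0575% of all tested genes were. *Scd2* shares 4.0% of its 50-base stretches, mainly with *Scd1*, and *Scd1* was below 1 FPKM in every library.

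*Elovl5*, an elongase of polyunsaturated fatty acids and the fatty-acid gene with the highest mean FPKM, read 92.2, 59.3 and 65.0 FPKM in WT, 43.4, 34.2, 57.7 and 56.0 in diabetic, and 45.2, 41.5, 52.8 and 36.9 in euglycemic libraries. All mutant libraries lay below WT, the closest being diabetic replicate 3. The fold changes were −0.59 (SE 0.23, adjusted p = 0.330) in diabetic, −0.68 (SE 0.23, adjusted p = 0.229) in euglycemic libraries and −0.63 over both (SE 0.21, adjusted p = 0.222).

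*Acss2*, which turns acetate into acetyl-CoA, read 2.15, 2.86 and 2.27 FPKM in WT, 1.82, 1.28, 1.18 and 1.43 in diabetic, and 1.69, 1.54, 1.16 and 1.37 in euglycemic libraries. Again each of the 8 mutant libraries lay below each WT library, with fold changes of −0.50 and −0.49 (SE 0.18 each, adjusted p = 0.273 and 0.258) and −0.49 over both (adjusted p = 0.216). Together with *Hmgcs1*, *Stard4*, *Scd2* and *Elovl5* it made 5 of 33 genes in which no mutant library reached any WT library, where 1.78% of all tested genes fell that way.

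*Fads2*, a desaturase of polyunsaturated fatty acids, read 4.92, 6.14 and 6.16 FPKM in WT, 3.82, 2.44, 2.69 and 5.07 in diabetic, and 3.74, 2.50 and 2.78 in 3 euglycemic libraries, and it was listed at 0 in euglycemic replicate 4. The fold change was −1.25 (SE 0.43, adjusted p = 0.228) in euglycemic libraries and −0.61 (adjusted p = 0.627) in diabetic libraries. The elongase *Elovl6* had fold changes of −0.29 and −0.25 (adjusted p = 0.687 and 0.654). *Fads1*, a further desaturase, read 10.5 to 14.9 FPKM in WT, 9.73 to 16.8 in diabetic and 6.09 to 15.0 in euglycemic libraries, and its groups overlapped. Another 3 fatty-acid genes fell short of the filter, and their groups were set against each other by two-sided exact permutation tests. *Scd1* had 0.686 ± 0.111 FPKM (SD, n = 3) in WT and 0.361 ± 0.324 (SD, n = 4) in diabetic libraries (exact permutation p = 0.229). In euglycemic libraries it was listed at 0 in replicate 4 and read 0.0975 to 0.303 in the others, all below WT, at an exact permutation p of 0.0571, the smallest that 4 libraries against 3 allow, so this design could not reach 0.05. Over both mutant groups (8 libraries against 3) the exact permutation p was 0.0485, at a difference of −0.43 on the log2 scale. *Acaca*, the acetyl-CoA carboxylase of fatty-acid synthesis, had 0.478 ± 0.165 FPKM in WT (SD, n = 3), 0.357 ± 0.172 in diabetic (SD, n = 4) and 0.238 ± 0.0324 in euglycemic libraries (SD, n = 4), with exact permutation p of 0.343 and 0.0571. It shares 30.4% of its 50-base stretches, mainly with *Gm5182*. *Acacb*, its mitochondrial relative, was listed at 0 in 6 of the 11 libraries and read at most 0.0641 FPKM.

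**Figure D4:**
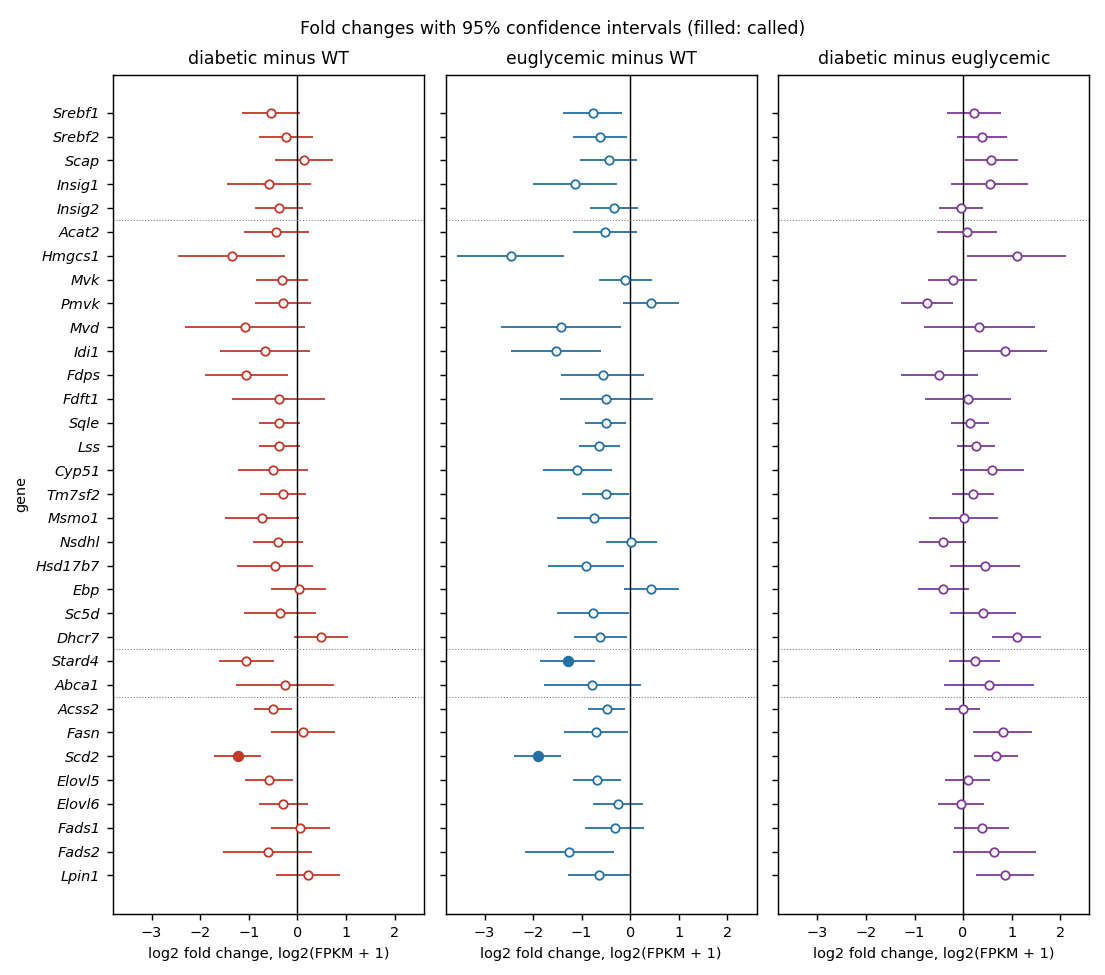
Fold change with its 95% confidence interval (horizontal axis, difference of log2(FPKM + 1)) of the 33 tested genes in 3 comparisons, with filled points for called genes. Most points lie left of 0 against WT, *Scd2* in both and *Stard4* in the euglycemic comparison are filled, and in the comparison of the mutant groups no point is filled.

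The comparison of diabetic with euglycemic mutants, in which the WT libraries enter through the shared estimate of the spread and the choice of genes tested, had 0 called genes among the 33 by limma, where 0.00889% of all tested genes were called, and 8 at an unadjusted p of at most 0.05. Of these 8, 7 were higher in diabetic libraries, where 10.6% of all tested genes were, and 1 was lower, where 10.0% were. The median over the 33 genes was 0.26 higher in diabetic libraries, against 0.01 over all tested genes, and 25 of the 33 had a positive difference. Without euglycemic replicate 4 that median was 0.14. Without WT replicate 1 there were 2 called genes, *Dhcr7* (adjusted p = 0.0416) and *Pmvk* (adjusted p = 0.0496), and 380 over all genes (3.40%) in place of 1. With library weights *Dhcr7* (adjusted p = 0.0163), *Fasn* (0.0218), *Scap* (0.0351) and *Scd2* (0.0450) were called higher in diabetic libraries, where 10.8% of all genes were called in either direction. With both WT replicate 1 and euglycemic replicate 4 left out *Dhcr7* (adjusted p = 0.0281) and *Fasn* (0.0376) were called higher and *Pmvk* (0.0469) lower, where 8.65% were called.

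*Dhcr7*, the reductase of the last step to cholesterol, had the lowest p. It read 3.42, 3.33 and 5.52 FPKM in WT, 4.61, 7.06, 7.78 and 5.03 in diabetic, and 2.30, 2.75, 2.98 and 1.27 in euglycemic libraries. Every euglycemic library lay below every WT and every diabetic library, and the diabetic and WT ranges overlapped. The diabetic level was 2.63-fold higher than the euglycemic level, a fold change of 1.11 (SE 0.23, adjusted p = 0.122), and it was 0.49 (SE 0.25, adjusted p = 0.485) above WT while the euglycemic level was −0.62 (SE 0.25, adjusted p = 0.299) from WT. *Dhcr7* was the only sterol enzyme besides *Ebp* without a negative fold change in diabetic libraries.

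*Scd2* was 0.67 higher in diabetic than in euglycemic libraries (SE 0.21, adjusted p = 0.136), with no overlap between the groups, and *Hmgcs1* 1.11 higher (SE 0.47, adjusted p = 0.213) with overlap. *Lpin1*, a phosphatidate phosphatase of glycerolipid synthesis, read 27.7, 30.2 and 42.2 FPKM in WT, 49.3, 31.9, 48.2 and 28.7 in diabetic, and 20.9, 31.3, 23.2 and 12.0 in euglycemic libraries. Its diabetic and euglycemic ranges met at euglycemic replicate 2, and the difference was 0.86 (SE 0.28, adjusted p = 0.145). *Fasn*, the fatty acid synthase, had 4.01 ± 1.72 FPKM in WT (SD, n = 3), 4.39 ± 1.70 in diabetic (SD, n = 4) and 2.01 ± 0.752 in euglycemic libraries (SD, n = 4), a difference of 0.81 between the mutant groups (SE 0.28, adjusted p = 0.160). *Scap* differed by 0.58 (SE 0.25, adjusted p = 0.219) and *Idi1* by 0.86 (SE 0.40, adjusted p = 0.241) in the same direction. *Pmvk* had the opposite sign, with 8.89 ± 1.47 FPKM in diabetic libraries (SD, n = 4), 15.5 ± 2.79 in euglycemic libraries (SD, n = 4) and no overlap (−0.74, SE 0.25, adjusted p = 0.154). *Stard4* and *Cyp51* did not differ detectably between the mutant groups, at 0.24 (95% confidence interval −0.28 to 0.76) and 0.59 (−0.06 to 1.25).

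A further list of 37 genes of SREBP processing, isoprenoid and sterol metabolism, liver X receptor response and glycerolipid synthesis gave the surroundings of these genes. Of the 36 tested, 0 were called in any of the 4 comparisons by limma. At an unadjusted p of at most 0.05, 2 were lower and 2 higher in diabetic libraries, 4 lower and 2 higher in euglycemic libraries, 4 lower and 1 higher over both mutant groups, and 1 lower and 5 higher in diabetic than in euglycemic libraries. Over all tested genes the shares lower and higher were 5.74% and 6.15%, 6.52% and 7.33%, 5.37% and 5.94%, and 10.0% and 10.6% in the same order. The median fold change of the 36 was 0.03 in diabetic and −0.12 in euglycemic libraries.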

How the data were processed

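RNA of GFP-sorted cells from 11 samples (3 WT, 4 diabetic, 4 euglycemic) was sequenced, and the authors deposited 1 FPKM value per gene and library on mm10. The methods name TopHat 2.1.0 and Cufflinks 2.1.1, whereas the submitters' processing notes name HISAT2 2.0.4, StringTie 1.3.0 and edgeR; which of them made the deposited FPKM table was not resolved here. Library strandedness is not given in the sources used here. The table has 34745 entries, of which 34267 matched a symbol, and repeated symbols kept the entry with the highest mean (17 left out). Groups came from the sample titles, and columns named KI were taken as the insulin-treated knockouts, the only group left after the columns named for WT and KO.

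Fits used limma 3.58.1 in R 4.3.3 (lmFit, eBayes with trend) on log2(FPKM + 1) over all 11 libraries, for genes reaching 1 FPKM in 3 or more libraries, and were checked on simulated data. Genes below the filter had two-sided exact permutation tests (scipy 1.17.1), whose p is 2 times the smaller tail. Depth came from FPKM steps of 4506 single-exon genes of at least 500 bases, where 92.7 to 97.2% of values of up to 20 fragments were whole within 0.02. FPKM has no counting interval. Coordinates and shared 50-base stretches are from GENCODE vM21 (GRCm38). The genes and lists were chosen with earlier results of these data known. Values per library are given for called genes, the 3 of lowest p in each comparison, the 5 regulators and the highest gene of each role; *Mvd*, *Idi1* and *Fads2* were added after their values were seen. Alternatives were no filter, a pseudocount of 0.1, TPM, median of ratios, library weights, the replicate block, no trend, no fold criterion, every entry kept, only the groups compared and each library left out. Leaving out the acinar-rich libraries (summed markers above 100), or WT replicate 1 and euglycemic replicate 4 together, was chosen after seeing the data. Some genes of this pathway are not reported here.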

Additional observations from a re-analysis of the deposited data

Results flagged for a closer look

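Each group of 4 libraries of the 36 genes was examined for 1 library far from the other 3, which made 72 groups, and 2 were found where chance gives about 1 in 20. *Ebp* read 21.9 FPKM in euglycemic replicate 2, against 18.6 to 18.8 in the other 3 euglycemic libraries. *Acacb* read 0.0138 FPKM in euglycemic replicate 1 and was listed at 0 in the other 3. With 3 values at 0, any value above 0 is flagged, so the rate of 1 in 20 does not apply to *Acacb*.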

How the results depend on the processing

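Of the 1766 single-gene values recomputed under the alternatives, 1673 kept direction and call, 35 lost the call, 32 gained it and 26 changed sign; the causes were not tested. Counts of called genes are given with the share of all tested genes called in brackets. In diabetic against WT the count was 1 (0.969%). It was 0 without a filter (0.0803%), 3 with library weights (4.90%), 2 with only the groups compared (1.46%) and 0 to 2 with 1 library left out (0.206% to 1.88%). In euglycemic against WT it was 2 (0.551%). It was 1 without a filter (0.0474%), 1 with a pseudocount of 0.1 (0.453%), 1 in TPM (0.323%) and 1 with only the groups compared (0.169%). With library weights it was 11 (20.3%), in the acinar-low libraries 0 (0.0575%) and with both end libraries left out 7 (10.9%). With 1 library left out it was 1 to 3 (0.0897% to 4.76%). Between the mutant groups it was 0, and it was 4 with library weights (10.8% of all genes, against 0.00889%), 3 with both end libraries left out (8.65%) and 0 to 2 with 1 library left out. Over both mutant groups it was 2 (1.05%). It was 1 without a filter (0.0839%), 1 with a pseudocount of 0.1 (0.8%) and 6 with library weights (9.92%). In the acinar-low libraries it was 0 (0.345%), and with 1 library left out 1 to 3 (0.251% to 1.61%). The call lost in euglycemic libraries was that of *Stard4* (adjusted p = 0.190 without a filter, 0.0877 with the pseudocount, 0.0657 in TPM and 0.163 with only the groups compared), as it was over both groups without a filter (0.135) and with the pseudocount (0.0666). The diabetic call lost without a filter was that of *Scd2* (adjusted p = 0.0834). In TPM the median of all genes between the mutant groups was 0.143, against 0.0088 in the deposited FPKM, and the median of the genes described here was 0.43 there.

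Same-numbered libraries did not deviate together (mean r −0.132, from −0.368 to 0.212 over 10 pairs, against 0.0433 over 30 other pairs), so the numbers were not taken as pairs. With the replicate block 1 gene was called against WT in diabetic libraries, 1 in euglycemic libraries and 1 over both groups. Of all tested genes 0.4%, 0.178% and 0.471% were called there. The lost call was that of *Stard4* (adjusted p = 0.169 and 0.111), and *Abca1* in diabetic libraries moved to 0.0645.

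Changes of sign in diabetic against WT were, with library weights, *Fasn* −0.10, *Fdft1* 0.13 and *Scap* −0.11, with both end libraries left out *Fasn* −0.17, *Fdft1* 0.13 and *Scap* −0.19, and in the acinar-low libraries *Fasn* −0.47, *Fdft1* 0.21, *Idi1* 0.0814, *Lpin1* −0.19, *Mvk* 0.28, *Sc5d* 0.0877, *Scap* −0.29 and *Tm7sf2* 0.17. In euglycemic against WT they were *Fdft1* 0.10 with library weights, 0.00142 in the acinar-low libraries and 0.18 with both end libraries left out, and *Acat2* 0.0172 with both end libraries left out. Between the mutant groups *Stard4* was −0.15 in the acinar-low libraries. With 1 library left out, diabetic against WT ranged from −0.58 to 0.0821 for *Abca1*, −0.17 to 0.35 for *Fasn*, −0.80 to 0.13 for *Fdft1* and −0.19 to 0.35 for *Scap*, and euglycemic against WT from −0.91 to 0.0287 for *Fdft1*.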
